A study of Mus musculus with 8 samples.

Results

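The genes described here build and load the molecules that show peptides to T cells. They were every gene whose name starts with H2-, the mouse major histocompatibility complex (MHC), and 9 partners named in full, *Cd74*, *Ciita*, *B2m*, *Tap1*, *Tap2*, *Tapbp*, *Psmb8*, *Psmb9*, and *Psmb10*. The rule found 54 of the 48709 genes listed, 45 by the H2- prefix and 9 by name. On GRCm38, 50 of the 54 lie on chromosome 17, which holds the MHC. *B2m* is on chromosome 2, *Psmb10* on chromosome 8, *Ciita* on chromosome 16, and *Cd74* on chromosome 18. Of the 54, 39 serve class I, 14 serve class II, and 1, *H2-Ke6*, carries the prefix for its place in the MHC and encodes an enzyme rather than an MHC molecule.

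Class I molecules are found on nearly all nucleated cells. A heavy chain (H2-K1 and H2-D1 are the classical ones) pairs with the light chain β2-microglobulin and holds a peptide cut from proteins of the cytosol. The proteasome cuts the peptides, Tap1 and Tap2 carry them into the endoplasmic reticulum, and tapasin, the product of *Tapbp*, helps load them. Class II molecules are made mainly by B cells, dendritic cells, and macrophages. Their α and β chains (H2-Aa with H2-Ab1, and an Eα chain with H2-Eb1) travel with the invariant chain Cd74 to the endosome, where H2-DM exchanges its remnant for a foreign peptide and H2-O restrains H2-DM. Ciita switches on the class II genes, and interferon γ raises both classes in many cells.

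RNA-Seq of whole pancreas was available from 8 male mice aged 8 weeks, in 4 groups with 2 libraries each. WT mice and cKO mice (*Pfkfb3* fl/fl; *Pdx1*-Cre) received saline or palmitoleic acid (POA) with ethanol, which sets off fatty acid ethyl ester severe acute pancreatitis (FAEE-SAP), and tissue was taken at 24 hours. In cKO mice Cre acts in cells that have expressed *Pdx1*, the pancreatic epithelium, so infiltrating immune cells keep *Pfkfb3*. The floxed allele was made in C57BL/6J embryos. The WT mice were bought from a vendor and not described as littermates, and their strain is not given in the sources used here, so genotype cannot be told apart from origin.

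Library totals recovered from the values were 22.8 to 37.6 M reads. The values are RPKM, a read count corrected for exon length and for the number of mapped reads. They were divided here by a median-of-ratios factor over all 8 libraries and are called scaled RPKM below. The acinar markers (8 of 8 detected in every library) and the duct, islet, endothelial, and macrophage markers marked the tissue as pancreas with other cells in it. *Pfkfb3*, the targeted gene, was at a scaled RPKM of 1.70 and 1.69 in WT saline, 1.85 and 3.21 in WT FAEE-SAP, 0.880 and 2.10 in cKO saline, and 1.74 and 2.82 in cKO FAEE-SAP. The genotypes overlapped in that gene. The deleted part is exons 2 and 3, which whole-gene RPKM does not resolve, so these values do not check the labels, and genotype was taken from the labels throughout.

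The promoters show the letters that the 2 classes share. In windows of the 250 bases before the RefSeq start (GRCm38.p6), which 38 of the 54 genes had, TGANG followed 15 to 25 bases later by ATTGG was searched on both strands. These are cores of the X and Y boxes through which Ciita and its class I counterpart Nlrc5 act. The pair was in 13 of the 38 genes (34.2%), 7 of class I and 6 of class II, and in 2.46% of all 32851 promoters. Of 8 class II genes with a window, 6 held it. The letters GGGATTCCC, a κB-type site, were in 4 of the 38 genes, *H2-K1*, *H2-D1*, *H2-Q6*, and *H2-Q7*, and in 0.301% of all promoters. Those of an interferon response element were sought as TTTCACTT, held by 9 genes, all of class I, and 1.361% of all promoters, and as GAAA with another GAAA after 2 bases, held by 3 genes and 2.977% of all promoters. Members were counted by gene, with a match in any window of the gene, and all promoters by window, so these shares differ in unit. A match is a description of the letters and not a measured site. The stretches below, 5′ to 3′ on the gene's strand, are shown for a class I heavy chain, the class I light chain, and 3 class II chains, with the matched letters in capitals. *H2-K1* is at chr17:34000349-34000469 (minus strand), *B2m* at chr2:122147536-122147648 (plus), *H2-Aa* at chr17:34287857-34287909 (minus), *H2-Eb1* at chr17:34305769-34305822 (plus), and *H2-Ob* at chr17:34238814-34238862 (plus).
H2-K1: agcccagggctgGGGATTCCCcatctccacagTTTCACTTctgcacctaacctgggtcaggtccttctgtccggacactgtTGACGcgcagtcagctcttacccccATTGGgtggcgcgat
B2m: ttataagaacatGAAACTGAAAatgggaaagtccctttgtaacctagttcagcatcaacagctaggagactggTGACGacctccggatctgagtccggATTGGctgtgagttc
H2-Aa: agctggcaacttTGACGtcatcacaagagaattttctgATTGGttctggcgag
H2-Eb1: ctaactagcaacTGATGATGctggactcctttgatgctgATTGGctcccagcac
H2-Ob: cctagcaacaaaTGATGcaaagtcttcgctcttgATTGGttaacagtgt
In *H2-K1* and *B2m* the class I letters (GGGATTCCC with TTTCACTT, or the GAAA pair) lie upstream of the pair, and in the class II chains only the pair is marked.

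Of the 54 genes, 13 were listed at 0 in all 8 libraries, among them the class II pseudogene *H2-Ea-ps*, and 34 were above 0 in every library. A gene was tested where its deposited RPKM reached 0.5 in at least 2 libraries of a comparison, and 31 of the 54 were tested in some comparison (19 of 39 class I genes, 11 of 14 class II genes, and *H2-Ke6*). The other 23 never reached a scaled RPKM above 0.303. Fold changes are on the log2(scaled RPKM + 0.1) scale, ± SE, from limma within the 2 groups compared, each pair of groups scaled on its own. A gene was called at a Benjamini-Hochberg adjusted p under 0.05 over all genes tested and at least a 2-fold change. The comparisons share groups with each other, and with 2 against 2 libraries no exact permutation p can go below 0.33.

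The classical class I genes were among the most highly expressed members, and no comparison called any of them. *H2-K1* stood at a scaled RPKM of 31.4 and 46.7 in WT saline, 38.8 and 33.7 in WT FAEE-SAP, 29.3 and 27.4 in cKO saline, and 41.8 and 30.9 in cKO FAEE-SAP. Both cKO saline libraries were below the other 6. *H2-D1*, the second classical heavy chain, measured 33.6 and 47.6 in WT saline, 48.1 and 45.8 in WT FAEE-SAP, 34.1 and 32.2 in cKO saline, and 47.7 and 44.5 in cKO FAEE-SAP. For *H2-D1*, 3 of the 4 saline libraries were the lowest, and WT saline 2 was level with the FAEE-SAP libraries. *B2m*, the light chain, was at 43.3 and 70.4 in WT saline, 53.2 and 46.1 in WT FAEE-SAP, 43.6 and 41.3 in cKO saline, and 72.5 and 44.7 in cKO FAEE-SAP. Its high libraries were WT saline 2 and cKO FAEE-SAP 1. Across the 8 libraries the ratio of *H2-D1* to *H2-K1* ran from 1.02 to 1.44 and that of *B2m* to *H2-K1* from 1.37 to 1.73. Between the cKO FAEE-SAP libraries *H2-D1* differed 1.07-fold, *H2-K1* 1.35-fold, and *B2m* 1.62-fold.

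**Figure D1:**
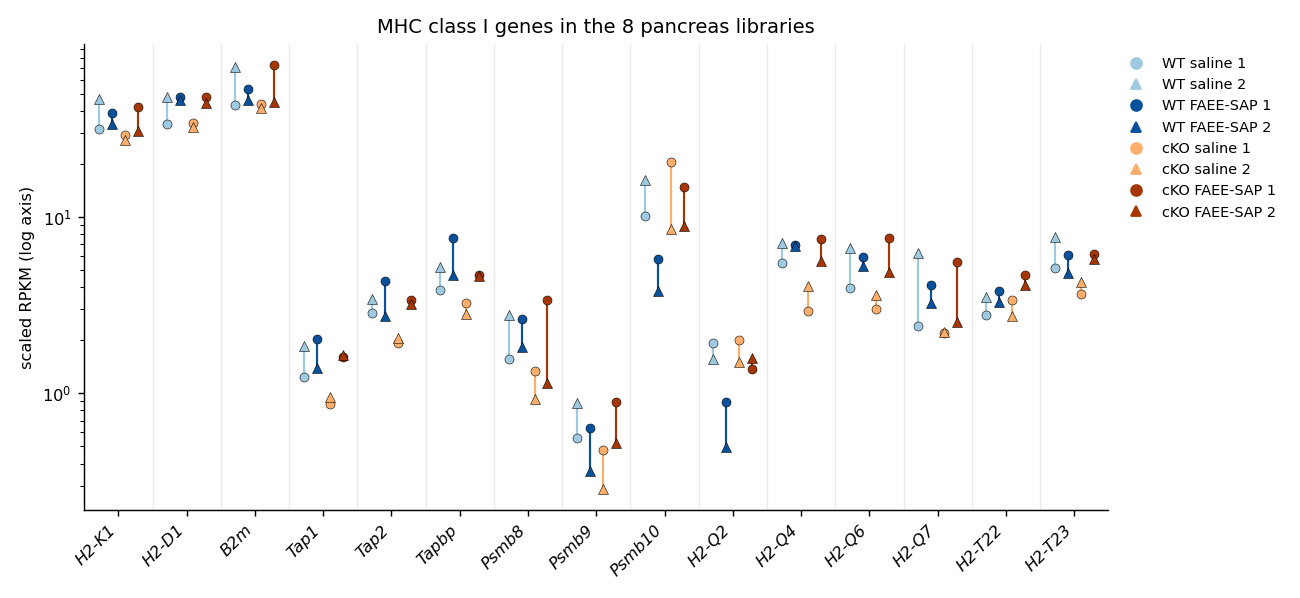
Scaled RPKM (log axis) of 15 class I genes in each library, with colour for the group, circles for replicate 1, triangles for replicate 2, and a line joining the 2 libraries of a group. *Psmb10* and *H2-Q2* are lowest in WT FAEE-SAP, and most other genes are lowest in cKO saline.

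The peptide transporter and tapasin had their lowest values in cKO saline. *Tap1* was at 1.24 and 1.84 in WT saline, 2.03 and 1.39 in WT FAEE-SAP, 0.872 and 0.953 in cKO saline, and 1.61 and 1.65 in cKO FAEE-SAP. *Tap2*, its partner in the heterodimer, was at 2.85 and 3.42, 4.32 and 2.75, 1.93 and 2.06, and 3.39 and 3.19 in the same order of groups. The *Tap1* to *Tap2* ratio held between 0.433 and 0.539. *Tapbp* was at 3.85 and 5.18 in WT saline, 7.59 and 4.70 in WT FAEE-SAP, 3.24 and 2.82 in cKO saline, and 4.67 and 4.65 in cKO FAEE-SAP. In all 3 genes the cKO saline pair lay below every other library. *Tap1* begins beside *Psmb9* on the opposite strand with 212 bases in common, and *Tapbp* shares 3422 bases with *Zbtb22* on its own strand, so reads of the latter pair may be split.

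The immunoproteasome subunits replace constitutive catalytic subunits of the proteasome, *Psmb8* that of *Psmb5*, *Psmb9* that of *Psmb6*, and *Psmb10* that of *Psmb7*. *Psmb10* was the only member called in any comparison. Its scaled RPKM was 10.1 and 16.1 in WT saline, 5.75 and 3.81 in WT FAEE-SAP, 20.6 and 8.54 in cKO saline, and 14.8 and 8.93 in cKO FAEE-SAP. Both WT FAEE-SAP libraries were below the other 6, and the cKO groups overlapped. In WT it fell by 1.44 ± 0.31 on the log2 scale after FAEE-SAP (adjusted p = 0.048), and in cKO the difference was -0.17 ± 0.51 (adjusted p = 0.93). The responses of the genotypes differed by 1.23 ± 0.66 (adjusted p = 0.49 for the interaction), so they were not shown to differ.

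The *Psmb10* call stood near the threshold. Leaving out any 1 of the 4 WT libraries ended it, with adjusted p between 0.063 and 0.225 and a log2 difference between -1.77 and -1.10. It was also lost in 1 model of all 8 libraries (adjusted p = 0.091) and with the replicate number as a block (adjusted p = 0.094). The same held without the filter on low values (adjusted p = 0.096). Quantile normalization, a pseudocount of 0.01, or no variance trend also ended it (adjusted p between 0.054 and 0.070). With RPKM as deposited the log2 difference was -0.13 (adjusted p = 0.75). *Ctrl*, a chymotrypsin-like digestive enzyme gene on the same strand, starts 1872 bases beyond the 3′ end of *Psmb10* (chr8:105935735-105938444, minus strand), and the antisense gene *Gm16156* covers *Psmb10* in full. *Ctrl* was at 14403 and 12184 in WT saline, 2614 and 2696 in WT FAEE-SAP, 15238 and 15524 in cKO saline, and 7548 and 8047 in cKO FAEE-SAP, and it fell in WT by 2.33 ± 0.15 on the log2 scale (adjusted p = 0.0026). The part of *Ctrl* in the *Psmb10* value was not tested.

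*Psmb8* and *Psmb9* were called in no comparison. After FAEE-SAP in WT their log2 differences were 0.08 ± 0.34 and -0.48 ± 0.36 (adjusted p = 0.91 and 0.44). Their interactions were 0.69 ± 0.71 and 1.19 ± 0.54 (adjusted p = 0.74 and 0.42). Whether they differ from *Psmb10* was not tested. *Psmb8* was at 1.56 and 2.76 in WT saline, 2.65 and 1.84 in WT FAEE-SAP, 1.34 and 0.928 in cKO saline, and 3.39 and 1.14 in cKO FAEE-SAP. *Psmb9* was at 0.556 and 0.877, 0.636 and 0.362, 0.478 and 0.288, and 0.889 and 0.526 in that order. In both genes the cKO saline pair lay below the WT saline pair. The *Psmb8* to *Psmb5* ratio was 0.103 and 0.172 in WT saline, 0.164 and 0.135 in WT FAEE-SAP, 0.0563 and 0.0580 in cKO saline, and 0.173 and 0.0601 in cKO FAEE-SAP. Its cKO saline and cKO FAEE-SAP 2 values lay together below the rest. The *Psmb9* to *Psmb6* ratio ranged from 0.0441 to 0.102 and was lowest in cKO saline. The *Psmb10* to *Psmb7* ratio was 2.13 and 3.22 in WT saline, 1.18 and 0.828 in WT FAEE-SAP, 3.93 and 1.84 in cKO saline, and 2.75 and 1.61 in cKO FAEE-SAP, so per length *Psmb10* exceeded its counterpart in 7 of the 8 libraries while *Psmb8* and *Psmb9* stayed far below theirs. The constitutive subunits differed by at most 0.37 on the log2 scale in any comparison, that of *Psmb5* for cKO against WT after FAEE-SAP (SE 0.19, adjusted p = 0.35).

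**Figure D2:**
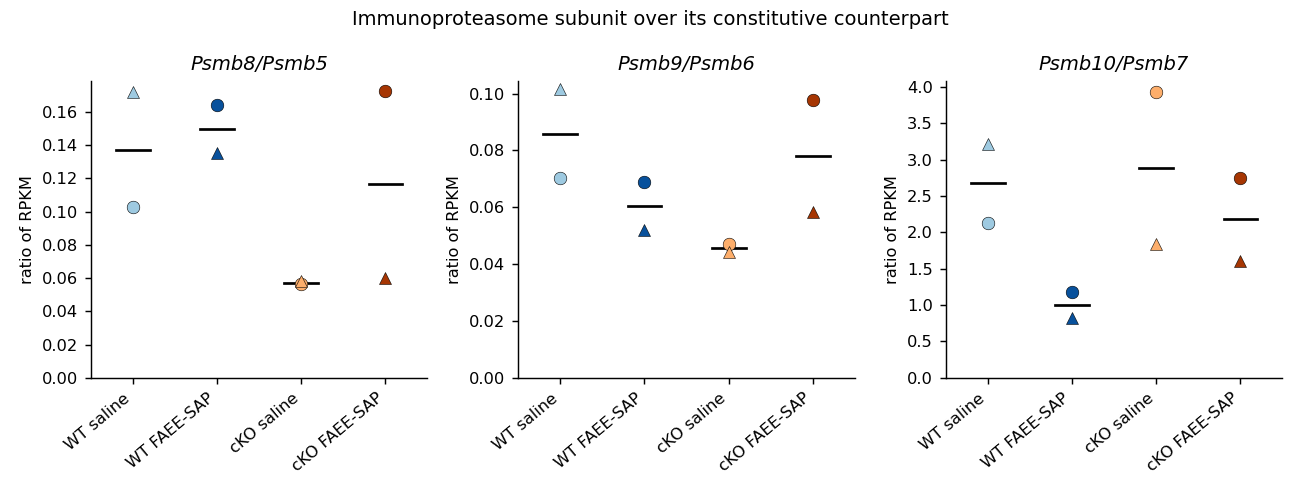
Ratio of the RPKM of each immunoproteasome subunit to that of the constitutive subunit it replaces, per library (circles replicate 1, triangles replicate 2), with a bar at the mean of each group. *Psmb10* over *Psmb7* is lowest in WT FAEE-SAP, at 1.18 and 0.828.

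The nonclassical class I genes encode molecules with narrow peptide sets or roles in natural killer and innate-like T cell recognition. The 30 listed include pseudogenes, and 10 of the 30 were tested. Of those tested, *H2-K2* is annotated as a transcribed pseudogene and *H2-Q5* as a polymorphic pseudogene. *H2-Q2* behaved unlike the others. It was at 1.93 and 1.57 in WT saline, 0.899 and 0.499 in WT FAEE-SAP, 2.01 and 1.51 in cKO saline, and 1.37 and 1.58 in cKO FAEE-SAP. The WT FAEE-SAP pair was below all other libraries, with a log2 difference from WT saline of -1.28 ± 0.32 (adjusted p = 0.069), which missed the threshold. *H2-T23*, which encodes Qa-1, the ligand of an inhibitory receptor of natural killer cells, was at 5.16 and 7.68, 6.06 and 4.83, 3.66 and 4.28, and 6.18 and 5.76 in the same order. *H2-Q4* was at 5.50 and 7.16, 6.93 and 6.88, 2.92 and 4.06, and 7.48 and 5.63. In both the cKO saline pair was the lowest. *H2-Q6* and *H2-Q7*, 2 nearly identical Qa-2 genes, ranged from 3.01 to 7.56 and from 2.20 to 6.21, and *H2-T22* from 2.75 to 4.72. *H2-M3*, which presents formylated bacterial peptides, ranged from 0.572 to 1.57. *H2-Q5* reached 1.15 and *H2-T24* reached 1.22, and *H2-K2* stayed at or below 0.644. Heavy-chain genes of this family are close copies, and reads may be split between them, so the values of single H2-Q and H2-T genes are uncertain. *H2-Ke6*, the enzyme gene of the region, was at 3.47 and 4.93 in WT saline, 3.09 and 2.19 in WT FAEE-SAP, 6.09 and 4.31 in cKO saline, and 4.90 and 4.20 in cKO FAEE-SAP, and shares 2027 bases with *Gm20427* on its strand.

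Class II genes differed most between the 2 libraries of WT saline and between those of cKO FAEE-SAP. *Cd74*, the invariant chain and the highest of them per length, was at a scaled RPKM of 37.6 and 83.7 in WT saline, 45.3 and 35.8 in WT FAEE-SAP, 38.1 and 32.6 in cKO saline, and 66.3 and 27.4 in cKO FAEE-SAP. *H2-Aa* was at 11.0 and 25.1, 12.9 and 10.9, 11.4 and 10.04, and 20.4 and 7.45 in that order. *H2-Ab1*, which pairs with it, was at 8.96 and 23.5, 12.1 and 10.1, 11.0 and 8.19, and 19.4 and 8.04. WT saline 2 was the highest and cKO FAEE-SAP 1 the second highest library for each of the 3 genes. *H2-Eb1* was at 12.1 and 31.4 in WT saline, 17.2 and 14.1 in WT FAEE-SAP, 14.6 and 11.8 in cKO saline, and 25.4 and 11.2 in cKO FAEE-SAP, the same pattern. *H2-Ea-ps*, whose product would pair with it, was listed at 0 in all 8 libraries. *H2-Eb2* was low, from 0.255 to 1.07. The transcript levels of *H2-Aa*, *H2-Ab1*, *H2-Eb1*, and *Cd74* changed over a 2.80-fold to 3.37-fold range, and their ratios per length changed less. *H2-Ab1* was at 0.812 to 1.08 of *H2-Aa*, *H2-Eb1* at 1.09 to 1.51 of it, and *Cd74* at 3.24 to 3.67 of it.

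The peptide editors and the transactivator showed the same pair of high libraries. *H2-DMa* was at 1.36 and 2.52 in WT saline, 1.37 and 1.11 in WT FAEE-SAP, 1.51 and 1.17 in cKO saline, and 2.72 and 1.17 in cKO FAEE-SAP. *H2-DMb1* was at 1.17 and 2.62, 0.957 and 0.893, 1.12 and 0.709, and 2.08 and 0.737 in that order. *H2-DMb2* was at 0.849 and 2.15, 1.81 and 1.29, 1.10 and 1.60, and 2.33 and 1.11. These 3 genes encode the H2-DM chains, and for each the WT saline 2 and cKO FAEE-SAP 1 libraries held the first and second place. *H2-Oa* was at 0.626 and 1.61, 1.13 and 0.444, 0.292 and 0.401, and 1.37 and 0.505. *H2-Ob* was at 0.967 and 2.49, 1.58 and 1.01, 0.839 and 0.942, and 1.94 and 0.715. *Ciita* was low, at 0.497 and 1.29 in WT saline, 0.730 and 0.390 in WT FAEE-SAP, 0.568 and 0.374 in cKO saline, and 0.942 and 0.347 in cKO FAEE-SAP, which came to 74.0 to 321 reads per library. *H2-Oa*, *H2-Ob*, and *Ciita* had their first and second place in the same libraries. *H2-DMa* overlaps *Brd2* on the opposite strand and shares 591 bases with *CR974462.3* on its own strand.

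**Figure D3:**
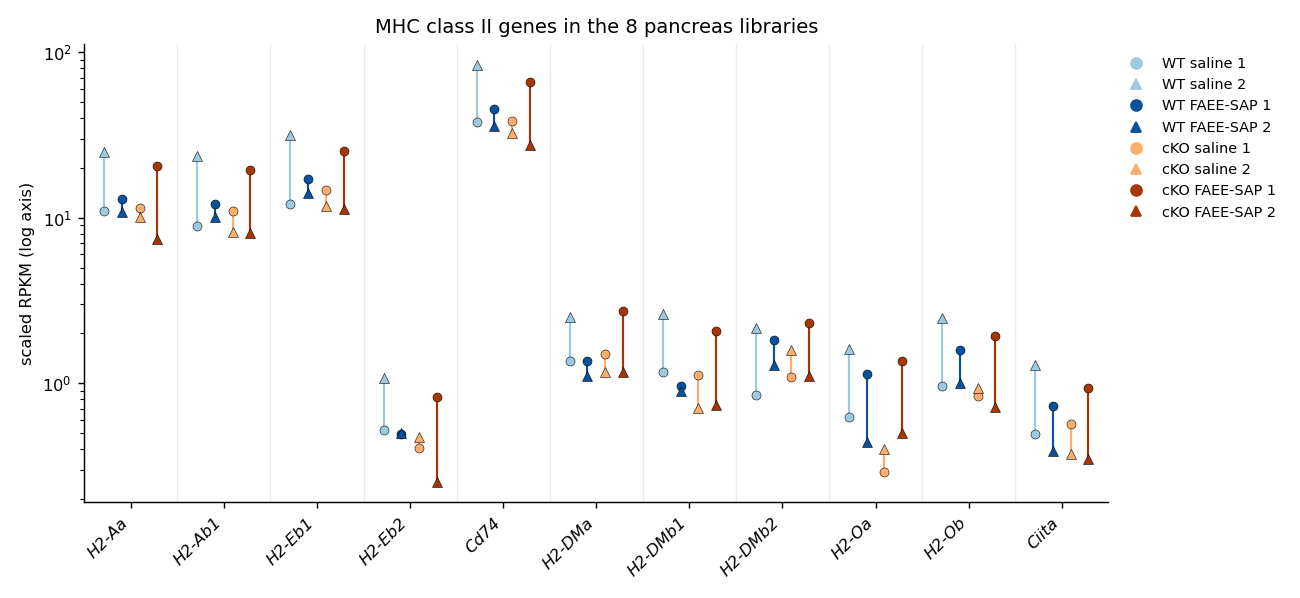
Scaled RPKM (log axis) of the 11 class II genes tested, in each library, with colour for the group, circles for replicate 1, triangles for replicate 2, and a line joining the 2 libraries of a group. WT saline 2 and cKO FAEE-SAP 1 are the high libraries in every gene, so the lines of these 2 groups are long.

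All 11 class II genes tested were higher in WT saline 2 than in WT saline 1, with a median fold of 2.32, and all 11 were higher in cKO FAEE-SAP 1 than in cKO FAEE-SAP 2, with a median fold of 2.42. Over the 11133 genes at the RPKM minimum in at least 2 of the 8 libraries the median fold between the libraries of a group was 1.19 to 1.21. For the 19 class I genes it was 1.49 in WT saline and 1.32 in cKO FAEE-SAP. Of these, 18 were higher in WT saline 2 than in WT saline 1, and 16 were higher in cKO FAEE-SAP 1 than in cKO FAEE-SAP 2. Markers of lymphoid cells differed between the same libraries. The 8 B cell markers, all detected in every library, summed to 9.90 and 21.3 in WT saline, 17.5 and 13.3 in WT FAEE-SAP, 8.75 and 9.88 in cKO saline, and 17.7 and 8.18 in cKO FAEE-SAP. The 7 T cell markers, all detected, summed to 5.71 and 13.8, 6.64 and 5.72, 5.37 and 4.10, and 9.96 and 4.07 in that order. The 5 lymph node stroma markers (*Ccl21a*, *Ccl19*, *Cxcl13*, *Madcam1*, and *Glycam1*), all detected, summed to 36.5 and 79.3, 49.5 and 36.6, 35.1 and 33.0, and 68.0 and 41.4. WT saline 2 was the highest library and cKO FAEE-SAP 1 the second highest for each of these 3 lists. The 3 pan-leukocyte markers ranged from 7.91 to 19.2, and their highest libraries were the same 2. The 8 dendritic cell markers ranged from 1.85 to 6.32, with *Xcr1* and *Cd209a* at 0 in some libraries. The macrophage markers (8 of 9 listed) spread less, from 74.2 to 132.0, and the 6 neutrophil markers followed treatment, from 0.997 to 2.76 in saline and from 11.6 to 54.3 in FAEE-SAP, with *Ly6g* and *Mmp8* at 0 in some libraries. The part of lymphoid tissue in the class II values was not tested. In whole tissue, more cells of a type and more RNA per cell cannot be told apart.

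**Figure D4:**
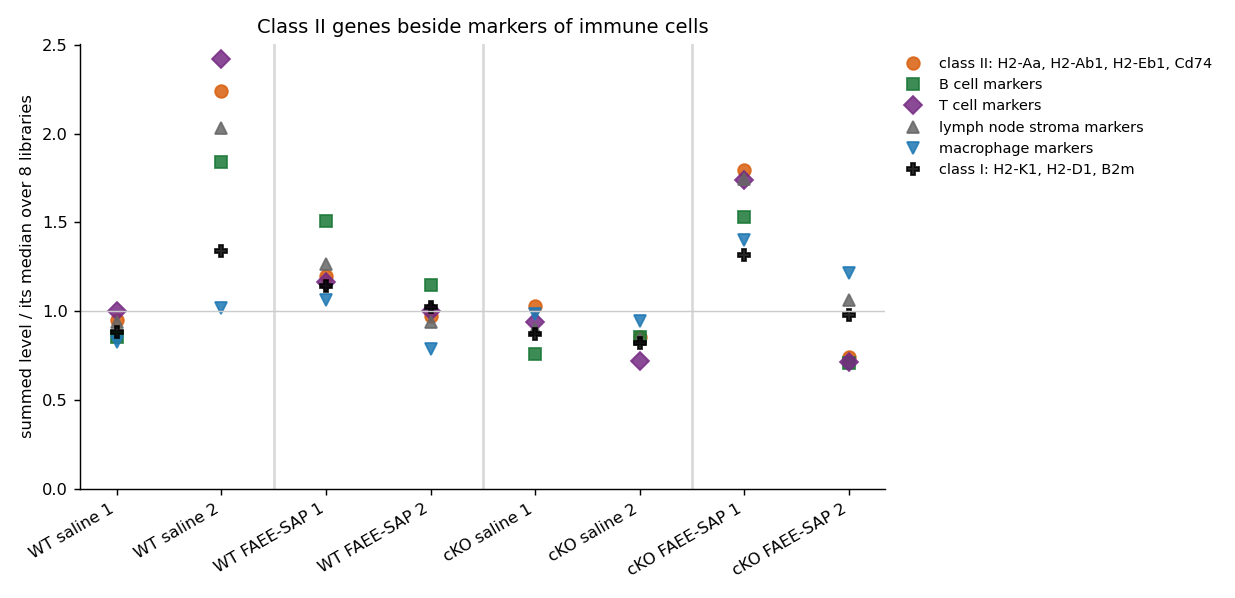
Summed scaled RPKM per library of 4 class II genes, 3 class I genes, and 4 marker lists, each divided by its own median over the 8 libraries. Class II genes, T cell, B cell, and lymph node stroma markers peak in WT saline 2 and cKO FAEE-SAP 1. The class I sum, which spans 100.9 to 164.8, is also highest in these 2 libraries (164.8 and 162.1).

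The first comparison asked how the pancreas of WT mice responds to FAEE-SAP. Of 31 members tested, 12 were higher and 19 lower than after saline. A single member, *Psmb10*, was called (1 of 31), where 6.93% of all genes tested were called. At an unadjusted p under 0.05 there were 2 members, *Psmb10* and *H2-Q2*, both lower, a smaller share than the 27.7% of all genes. The groups did not overlap in 1 member that was higher, *H2-Q5*, against 29.7% of all genes, and in 5 that were lower (*Psmb10*, *H2-Q2*, *H2-Ke6*, *H2-DMb1*, and *H2-Eb2*), against 29.1%. The median log2 difference was 0.08 for the 19 class I genes, -0.48 for the 11 class II genes, and 0.02 for all genes. These directions rested on single libraries. Without WT saline 2, the library with high lymphoid markers, 24 were higher and 7 lower, and the medians were 0.31 for class I and 0.08 for class II. Without WT saline 1, 4 were higher and 27 lower, and the medians were -0.37 and -1.05. Without WT FAEE-SAP 1, 8 were higher and 23 lower (class I median -0.13), and without WT FAEE-SAP 2, 16 were higher and 15 lower. With all libraries kept, T cell markers were lower in 7 of 7 (median -0.49) and dendritic cell markers in 2 of 2, none called. Of 8 macrophage markers 5 were lower and 3 higher, none called. B cell markers were higher in 5 of 8 and lymph node stroma markers in 2 of 5, with *Cxcl13* called. Islet markers were lower in 5 of 5 (2 called), and neutrophil markers higher in 5 of 5 (all called). The part of these cells in the MHC values was not tested. In the RPKM as deposited, without scaling, 14 of the 31 were called, all higher. The median of all genes was then 1.24 and that of the class I genes 1.26. In scaled RPKM the 8 acinar markers were all called lower. Their scaled sums were 190990 and 163937 after saline and 54880 and 56149 after FAEE-SAP.

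The same comparison in cKO mice gave no called member. Of 26 tested, 23 were higher and 3 lower after FAEE-SAP, none was called, and 0.0531% of all genes were. At an unadjusted p under 0.05 there were 8 members, all of class I and all higher (*H2-D1*, *H2-Q4*, *H2-Q6*, *H2-T22*, *H2-T23*, *Tap1*, *Tap2*, and *Tapbp*), against 9.42% of all genes. This is a larger share than that of all genes, and members move together within a library, so their counts are not independent. *Tap1* had a log2 difference of 0.78 ± 0.17 (adjusted p = 0.37), *Tap2* of 0.72 ± 0.17 (adjusted p = 0.40), and *H2-Q4* of 0.92 ± 0.26 (adjusted p = 0.44). Both FAEE-SAP libraries were above both saline libraries for 14 of the 17 class I genes tested, against 19.6% of all genes, and for none of the 8 class II genes. No member lay wholly lower, against 23.6% of all genes. The median log2 difference was 0.63 for class I, 0.40 for class II, and -0.01 for all genes. Without cKO FAEE-SAP 1, 13 of 24 were higher and 11 lower, and the median was 0.44 for class I and turned to -0.21 for class II. Without cKO FAEE-SAP 2, 23 of 24 were higher, and the medians were 0.82 and 1.05. Macrophage markers summed to 92.7 and 88.9 in cKO saline and to 132.0 and 114.4 in cKO FAEE-SAP, and 6 of the 8 tested had FAEE-SAP libraries wholly above saline. All 4 endothelial markers tested lay wholly higher (median log2 difference 0.47). All 8 acinar markers were lower (median -0.81, none called), with sums of 224749 and 221685 in cKO saline and 132690 and 147752 in cKO FAEE-SAP. The part of these cells in the class I values was not tested.

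Between genotypes after saline, 22 of 24 members tested were lower in cKO and 2 higher. No member was called, and neither was any other gene, so the share called was 0% of all genes tested. At an unadjusted p under 0.05 there were 4 members (*H2-Q4*, *H2-T23*, *Tap1*, and *Tap2*), all lower, a larger share than the 2.15% of all genes, and the adjusted p of each was 0.999. Both cKO libraries were below both WT libraries for 11 of the 24, against 12% of all genes, and for no member were both above, against 16.3%. The 11 were 9 of class I, led by *H2-Q4* with a log2 difference of -0.87 ± 0.25, and 2 of class II, *H2-DMb1* and *H2-Ob*. The median log2 difference was -0.57 for class I, -0.65 for class II, and 0.01 for all genes. Without WT saline 2 the medians were -0.21 and -0.04, and 17 of 23 members were lower, and without WT saline 1 they were -0.81 and -1.31, and 23 of 24 were lower. Immune markers had the same direction, with log2 differences below 0 for 6 of 6 T cell markers tested (median -0.77, 4 not overlapping), 5 of 5 B cell markers (median -0.54), 3 of 3 pan-leukocyte markers (median -0.62), and 2 of 2 dendritic cell markers, none called. Of 8 macrophage markers 5 were higher and 3 lower (median 0.06). The part of these cells in the MHC values was not tested.

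The last pair of groups was cKO and WT after FAEE-SAP. Of 31 members tested, 20 were higher and 11 lower in cKO, none was called, and 1.27% of all genes were. At an unadjusted p under 0.05 there were 3 of the 31, *Psmb10*, *H2-Q2*, and *H2-Ke6*, all higher in cKO, a smaller share than the 19.5% of all genes. *Psmb10* differed by 1.27 ± 0.32 on the log2 scale (adjusted p = 0.13) and *H2-Q2* by 1.04 ± 0.32 (adjusted p = 0.18). *Psmb10* was called with the replicate number as a block (adjusted p = 0.027), though the labels do not pair the mice. The groups did not overlap in 4 members that were higher, against 26.5% of all genes, and in 2 that were lower, against 25.3%. The median log2 difference was 0.02 for class I, 0.09 for class II, and -0.01 for all genes. Both the count and the medians turned with 1 library. Without cKO FAEE-SAP 1, 7 were higher and 24 lower, with medians of -0.12 and -0.46, and without cKO FAEE-SAP 2, 25 were higher and 6 lower, with medians of 0.18 and 0.72. Without WT FAEE-SAP 2, 11 of 30 were higher and 19 lower, and without WT FAEE-SAP 1, 24 were higher and 6 lower. With all libraries kept, acinar markers were higher in cKO in 8 of 8 (median 1.28, 4 called) and islet markers in 5 of 5 (3 called). Macrophage markers were higher in 7 of 8 and T cell markers in 4 of 7, none called. Neutrophil markers were lower in 5 of 5 (1 called) and B cell markers in 7 of 7 (none called). *Ctrl*, beside *Psmb10*, was higher by 1.54 ± 0.14 (adjusted p = 0.017). The part of these in the member values was not tested. With RPKM as deposited 5 members were called, all lower, where the median of all genes was -0.91.

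The interaction, which tests whether the response differs between the genotypes, was positive for 30 of 31 members and negative for *H2-Q5*. None was called, and 0.0719% of all genes were. At an unadjusted p under 0.05 there were 2 of the 31, *H2-Q2* and *H2-T23*, against 12.6% of all genes. *H2-Q2* had an interaction of 1.02 ± 0.40 (adjusted p = 0.37) and *H2-T23* of 0.80 ± 0.33 (adjusted p = 0.38). The median was 0.58 for class I, 0.75 for class II, and 0.02 for all genes. Without WT saline 2, 24 of the 31 were positive. The medians were 0.23 and 0.15 without that library, and 0.27 and 0.12 without cKO FAEE-SAP 1, the 2 libraries with high lymphoid markers. They were 0.92 and 1.36 without WT saline 1, and 0.84 and 1.40 without cKO FAEE-SAP 2. As deposited, 17 of the 31 were positive, and the class medians were -0.06 and 0.08 where that of all genes was -0.63. Cell type markers moved with the interaction, none of them called. It was positive for 8 of 8 acinar (median 1.07), 5 of 5 islet (median 1.36), 7 of 7 T cell (median 0.98), 5 of 5 endothelial (median 0.48), 3 of 3 dendritic cell (median 1.17), 3 of 3 pan-leukocyte (median 0.52), 7 of 8 B cell (median 0.33), and 7 of 8 macrophage markers tested (median 0.82). It was negative for 5 of 5 neutrophil (median -1.71) and 4 of 4 adipocyte markers (median -1.04). It was positive for 4 of 5 lymph node stroma (median 1.27) and 3 of 4 duct markers (median 0.34). The stroma marker *Cxcl13* went against the rest of its list (-1.86 ± 0.27, adjusted p = 0.077). The part of these cells in the MHC values was not tested.

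**Figure D5:**
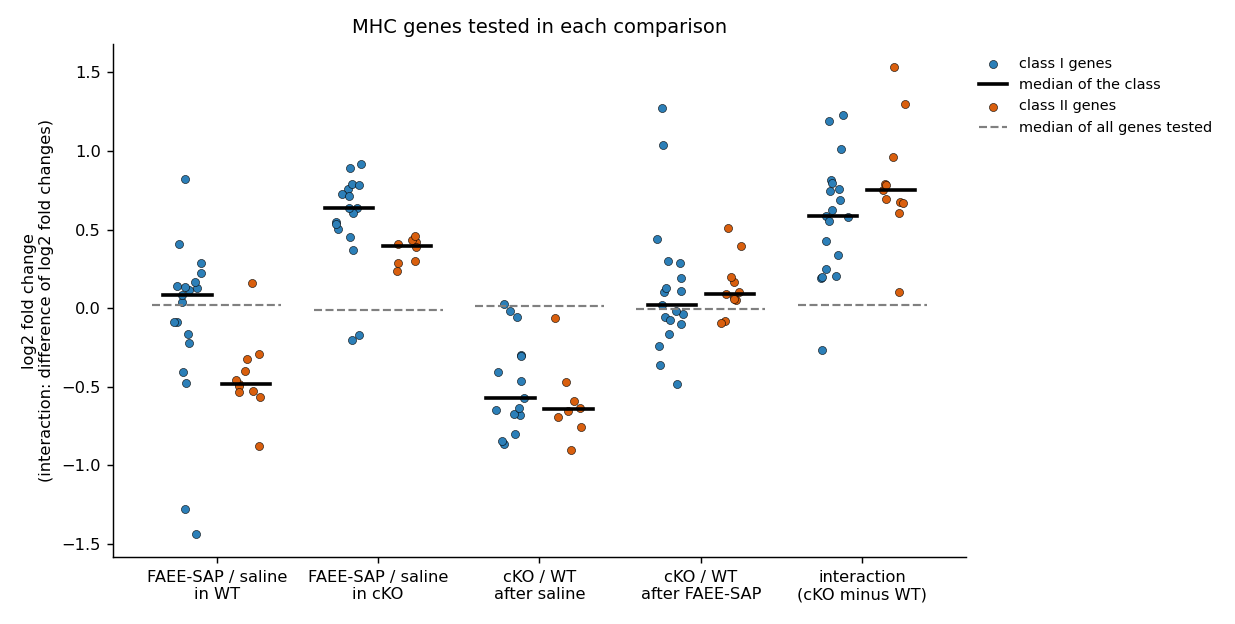
Log2 fold change of each member tested in the 4 comparisons and the interaction, class I and class II apart, with solid bars at the class medians and dashed lines at the median of all genes tested. The class II medians are -0.48 in WT (range -0.88 to 0.16) and 0.40 in cKO, and they turn to 0.08 and -0.21 when WT saline 2 or cKO FAEE-SAP 1 is left out.

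The rest of the pathway was followed in a list of 46 gene names outside the 54, of which 44 were in the files and 41 were tested in WT. After FAEE-SAP 26 of these 41 were higher and 15 lower in WT, with 3 called higher and none lower, beside the 6.93% of all genes. The 3 were *Rela*, the p65 subunit of NF-κB, and 2 of the 6 endosomal proteases and reductases that prepare class II peptides, *Ctsl* and *Lgmn*. *Rela* was at a scaled RPKM of 6.04 and 4.67 in WT saline, 15.2 and 24.7 in WT FAEE-SAP, 4.62 and 6.72 in cKO saline, and 4.84 and 6.42 in cKO FAEE-SAP. Only the WT FAEE-SAP pair was apart. It rose in WT by 1.85 ± 0.29 on the log2 scale (adjusted p = 0.023), the difference in cKO was 0.03 ± 0.26 (adjusted p = 0.98), and the interaction of -1.85 ± 0.43 did not pass (adjusted p = 0.20).

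*Ctsl* and *Lgmn* were high after FAEE-SAP in both genotypes. *Lgmn*, which encodes an asparaginyl endopeptidase, was at 3.15 and 5.29 in WT saline, 12.5 and 12.6 in WT FAEE-SAP, 4.09 and 3.90 in cKO saline, and 16.4 and 12.2 in cKO FAEE-SAP. *Ctsl*, a cathepsin, was at 99.7 and 63.4, 220.1 and 192, 70.2 and 116, and 173 and 224 in that order. In both genes no FAEE-SAP library overlapped the saline libraries of its genotype. In WT *Lgmn* rose by 1.59 ± 0.27 (adjusted p = 0.030) and *Ctsl* by 1.36 ± 0.25 (adjusted p = 0.034) on the log2 scale, and in cKO the differences of 1.82 ± 0.22 and 1.15 ± 0.30 did not pass (adjusted p = 0.17 and 0.43). *Ctss*, which trims the invariant chain, was at 7.59 and 11.7, 10.6 and 11.2, 7.95 and 6.59, and 17.3 and 11.1 (log2 difference in WT 0.20 ± 0.24, adjusted p = 0.64, and in cKO, where the groups did not overlap, 0.96 ± 0.29, adjusted p = 0.45). The chains these proteases serve, above, were not called.

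Of the 15 regulators of the MHC promoters, all tested in WT, none but *Rela* was called. *Nlrc5*, the class I transactivator, was at 0.239 and 0.696 in WT saline, 0.528 and 0.342 in WT FAEE-SAP, 0.316 and 0.242 in cKO saline, and 0.571 and 0.219 in cKO FAEE-SAP. *Irf1* ranged from 1.11 to 2.03 and *Rfx5*, a subunit of the X-box complex, from 0.482 to 0.901. For *Nlrc5* and *Irf1* the highest library was WT saline 2, as for 9 of the 11 class II genes tested. None of the 44 was called in the other 4 comparisons by limma. At an unadjusted p under 0.05 there were 7 of 36 higher after FAEE-SAP in cKO (9.42% of all genes), 1 of 35 lower in cKO after saline (2.15%), 2 higher and 5 lower of 42 in cKO after FAEE-SAP (19.5%), and 3 positive and 2 negative of 42 in the interaction (12.6%).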

How the data were processed

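RNA-Seq of total pancreatic RNA from 8 mice, 2 per group, was used. Libraries were grouped by their labels, and the series text calls the 2 of a group biological replicates. The p-values rest on the spread between the 2 libraries of a group, moderated by limma toward a trend fitted over all genes. Per the study's methods, a directional kit and paired-end sequencing were used, reads were filtered with fastp, and CLC Genomics Workbench mapped them to Ensembl GRCm38.p6. The authors deposited RPKM for 48709 genes per library. How these were computed is not given in the sources used here, and no read counts were used.

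Exonic lengths came from GENCODE vM21 (GRCm38), matched by symbol for 46325 genes (95.1%). They gave approximate reads and library totals of 22.8 to 37.6 M, with 84.4% to 86.1% of low values at whole reads within 0.1. The matched genes came to 100.3% to 105.7% of these totals, so the reads and totals also carry an error from the lengths used.

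RPKM was divided by median-of-ratios factors (0.621 to 2.02), and log2(scaled RPKM + 0.1) was fitted in R 4.3.3 by limma 3.58.1 (its trend option on) over all genes that reached RPKM 0.5 in at least 2 libraries of the comparison. Benjamini-Hochberg adjustment was over all genes tested. The interaction used all 8 libraries. The fits were tested on simulated data. Promoter windows came from RefSeq through a table for GRCm38.p6.

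The members, gene lists, and tests were chosen with earlier results of these data known. Named were the classical class I genes and partners, the class II chains, editors, *Cd74*, and *Ciita*, every member called, other H2- genes with a group mean scaled RPKM of 1 or more, 8 further pathway genes, 1 of which is not reported here, and pathway genes called. *H2-K2*, *H2-Q5*, *H2-T24*, *H2-M3*, *H2-Eb2*, and *H2-Ke6*, where not covered by this, were named after their values were seen. Alternatives in scaling, filter, pseudocount, variance prior, model, block, test, threshold, and libraries were tried. All other assays were not analysed here.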

Additional observations from a re-analysis of the deposited data

How the results depend on the processing

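Depth and 2 libraries per group limit what could be called, and the lowest tested member, *H2-K2*, had 3.25 to 32.5 reads per library. Of 31 members tested after FAEE-SAP in WT, the number called went from 1 to 14 with RPKM as deposited and to 0 with quantile normalization, without the filter, with the replicate number as a block, without the trend, and with 0.01 as the pseudocount. It was 0 to 0 when any 1 library was left out, 2 at an unadjusted p with at least 2-fold, and 1 with the trimmed mean of log ratios, the higher filter, a pseudocount of 1, and voom on the reads worked out. With all 8 libraries in 1 model it was also 1, *H2-Q2* in place of *Psmb10*. As deposited, the log2 differences of *B2m* (1.16), *H2-K1* (1.23), and *H2-T23* (1.08) turned positive and were called, with a median of all genes of 1.24. The adjusted p of *Psmb10* in WT ran from 0.039 to 0.747 over 15 alternatives, and was 0.094 with the block. For cKO against WT after FAEE-SAP the number called went from 0 to 5 as deposited, to 1 (*Psmb10*) with the block, and to 2 (*Psmb10* and *H2-Q2*) at an unadjusted p with at least 2-fold, and for the interaction from 0 to 1 (*H2-Q2*) with the last. In both comparisons it was 0 under the other alternatives, and 0 under all alternatives run for FAEE-SAP in cKO and for cKO against WT after saline. The causes were not tested.

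Replicate numbers do not pair the mice by their labels. Deviations of same-numbered libraries correlated at -0.17, -0.32, and -0.52 between WT saline and WT FAEE-SAP, cKO saline, and cKO FAEE-SAP, and at 0.18 to 0.40 among the other 3 groups. Over all genes the block moved the calls in WT from 755 to 442, in cKO from 5 to 52, between genotypes after FAEE-SAP from 140 to 568, and in the interaction from 8 to 0. With the WT saline numbers exchanged, an alternative chosen after seeing the data, 822 genes and 1 member were called in WT, and 68 genes and 0 members in the interaction.

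Over all genes, calls in WT (335 higher and 420 lower) were 7270 as deposited (7184 higher and 86 lower), 506 with a pseudocount of 1, 259 without the filter, and 97 to 491 without 1 library. After FAEE-SAP between genotypes they (95 higher and 45 lower) were 4427 as deposited (73 higher and 4354 lower), 299 with all 8 libraries in 1 model, 80 with quantile normalization (43 higher and 37 lower), 57 without the trend, 0 without the filter, and 0 to 139 without 1 library. In the interaction they were 791 as deposited, 25 with quantile normalization, 24 with a pseudocount of 1, 35 with the higher filter, 3 without the trend, 1 with 0.01 as the pseudocount, and 0 without the filter. In cKO they were 15 as deposited and with all 8 libraries in 1 model, 0 without the filter, and 0 to 6 without 1 library, and between genotypes after saline 2 as deposited and 1 with quantile normalization. Of the log2 differences of single members under the alternatives other than the unadjusted p with at least 2-fold, 2075 stayed on their side of the threshold and in their direction, 164 changed sign without a call, 18 came to be called, 11 were no longer called, and 3 turned with a call, those of *B2m*, *H2-K1*, and *H2-T23*.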

Other observations

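Genes that interferon γ induces were counted as a list of 16, of which 13 were tested in WT. After FAEE-SAP 8 were higher and 5 lower in WT, with none called by limma and 1 at an unadjusted p under 0.05, a smaller share than the 27.7% of all genes. Between genotypes after FAEE-SAP 4 were higher and 9 lower in cKO, with none called and 1 at an unadjusted p under 0.05, *Gbp2*, against 19.5% of all genes. In cKO 6 of 7 tested were higher after FAEE-SAP (median log2 difference 0.31), after saline 5 of 5 were lower in cKO than in WT (median -0.40), and the interaction was positive for 9 of 13 (median 0.34), with none called by limma and 1, 0, and 0 at an unadjusted p under 0.05. *Gbp2*, which encodes a guanylate-binding protein that acts on vacuoles of pathogens, was at a scaled RPKM of 1.06 and 1.58 in WT saline, 2.33 and 2.33 in WT FAEE-SAP, 1.49 and 1.05 in cKO saline, and 1.44 and 0.751 in cKO FAEE-SAP. The WT FAEE-SAP pair was the highest. Its log2 difference between genotypes after FAEE-SAP was -1.11 ± 0.33 (adjusted p = 0.17) and was the lowest of the 13, which ran up to 0.22 for *Socs1*, a feedback inhibitor of cytokine signalling. *Ifng* itself was listed at 0 in 5 libraries and stayed at or below 0.0861.

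Chaperones and partners of class I loading in the endoplasmic reticulum were counted as a list of 7 genes, all tested. In WT after FAEE-SAP 4 were higher and 3 lower, with none called by limma, 4 at an unadjusted p under 0.05 (27.7% of all genes), and log2 differences from -0.30 to 1.84. In cKO 4 were higher and 3 lower, with none called, 1 at an unadjusted p under 0.05 (9.42% of all genes), and differences from -0.25 to 0.50. Between genotypes after FAEE-SAP 3 were higher and 4 lower, with none called and 4 lower at an unadjusted p under 0.05 (19.5% of all genes). The interaction was positive for 2 and negative for 5, with none called and 1 at an unadjusted p under 0.05 (12.6% of all genes), so the genotypes were not shown to differ.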
